A study of Saccharomyces cerevisiae with 6 samples.

Results

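The Ras-cAMP-protein kinase A pathway was followed through 9 of its genes, taken by gene name from a table of 5297 genes. They are *RAS1*, *RAS2*, *CDC25*, *IRA1*, *IRA2*, *CYR1*, *BCY1*, *TPK2* and *TPK3*, and each of the 9 names matched 1 row with the expected systematic name. Poly(A) RNA had been sequenced from diploid budding yeast of the SK1 background in meiosis, from 3 *SPO11* cultures (strain H10423) and 3 *spo11-YF* cultures (strain H10355) that came from 3 independent time courses. *SPO11* cells form the programmed DNA breaks of meiosis. The *spo11-YF* allele, which is HA-tagged and marked with *URA3*, carries phenylalanine in place of the active-site tyrosine and makes no breaks. *NDT80* is deleted in both strains (*ndt80Δ::TRP1*), which holds the cells in meiotic prophase. *PPH3*, the gene for the catalytic subunit of protein phosphatase 4, is deleted as well (*pph3Δ::LEU2*), and both strains carry *ho::LYS2* and *lys2*. Each strain is a single diploid. They also differ in marker copies, since *SPO11* cells carry additional *LEU2* beside the *pph3Δ::LEU2* marker.

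The value used for each gene is its normalized count averaged by the authors across the 6 libraries, named its level in what follows. It pools *SPO11* and *spo11-YF* cells, so it describes what both cultures held together and contains no difference between them. It carries no value per library, and therefore no SD, interval or test accompanies the levels below, and genes that lie close together in order cannot be told apart. The levels of all listed genes sum to 2759217 normalized counts, the average depth of a library on this scale, and the 9 genes account for 0.329% of that sum. The depth of each library is unknown. The lowest level in the table is 8.21, so percentages of genes below a member refer to the listed genes, not to every gene of the genome. Levels of marker genes of meiosis are given for orientation. The 7 early meiotic genes listed (*DMC1*, *HOP1*, *RED1*, *ZIP1*, *REC8*, *SPO11* and *MEK1*) had levels between 1084 and 7042. The 4 genes that need Ndt80 (*SPS1*, *SPS4*, *SMK1* and *CLB1*) had levels between 23.7 and 90.0. As *NDT80* is deleted in both strains, these 4 levels cannot test the stage of the cells. The deleted genes *NDT80* and *PPH3* had no row.

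In budding yeast, this pathway reports a supply of glucose and other nutrients. Ras1 and Ras2 are small GTPases, Cdc25 loads them with GTP, and Ira1 and Ira2 make them hydrolyse it. Ras bound to GTP activates the adenylate cyclase Cyr1, and the cAMP it makes binds Bcy1, the regulatory subunit, which then releases the catalytic subunits of protein kinase A, Tpk2 and Tpk3 among them. High activity of the kinase favours growth and holds cells back from entering meiosis, partly by keeping the meiotic regulator *IME1* low, while starved cells, such as those in acetate medium, enter meiosis with the pathway turned down. The steps of the pathway that respond to nutrients act on the proteins and are not measured by mRNA levels.

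The members were listed at widely different levels, and the longest genes, *IRA1*, *IRA2*, *CYR1* and *CDC25*, were among the highest. The 5 members with the highest levels were *IRA2*, *CDC25*, *IRA1*, *CYR1* and *BCY1*, all above 1416 normalized counts. The next was *TPK2* at 370.5, and *RAS2*, *RAS1* and *TPK3* followed with 167, 122 and 45.9. The highest level was 50.2 times the lowest, and the median of the members was 1417, against 218.5 over all genes. Of the 9 members, 6 lay above that median and 3, the *RAS* genes and *TPK3*, lay below it.

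Counts of reads grow with the length of an mRNA, so levels of different genes were compared per kilobase (kb) of coding length, which was taken from the S288C reference. Per kb, *BCY1* stood first with 1133 normalized counts, and *CDC25*, *TPK2*, *IRA2* and *CYR1* came next with 352, 324, 249 and 242. *RAS2*, *IRA1* and *RAS1* followed with 172, 163 and 132, and *TPK3* was again last with 38.3. The span between the highest and the lowest member was 29.6-fold on this scale. The members had a median of 242 per kb, and all 5276 genes with a coding length had a median of 165. Again 6 members lay above the median of all genes, but they were not the same ones: *RAS2* was now just above it, and *IRA1* just below.

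**Figure D1:**
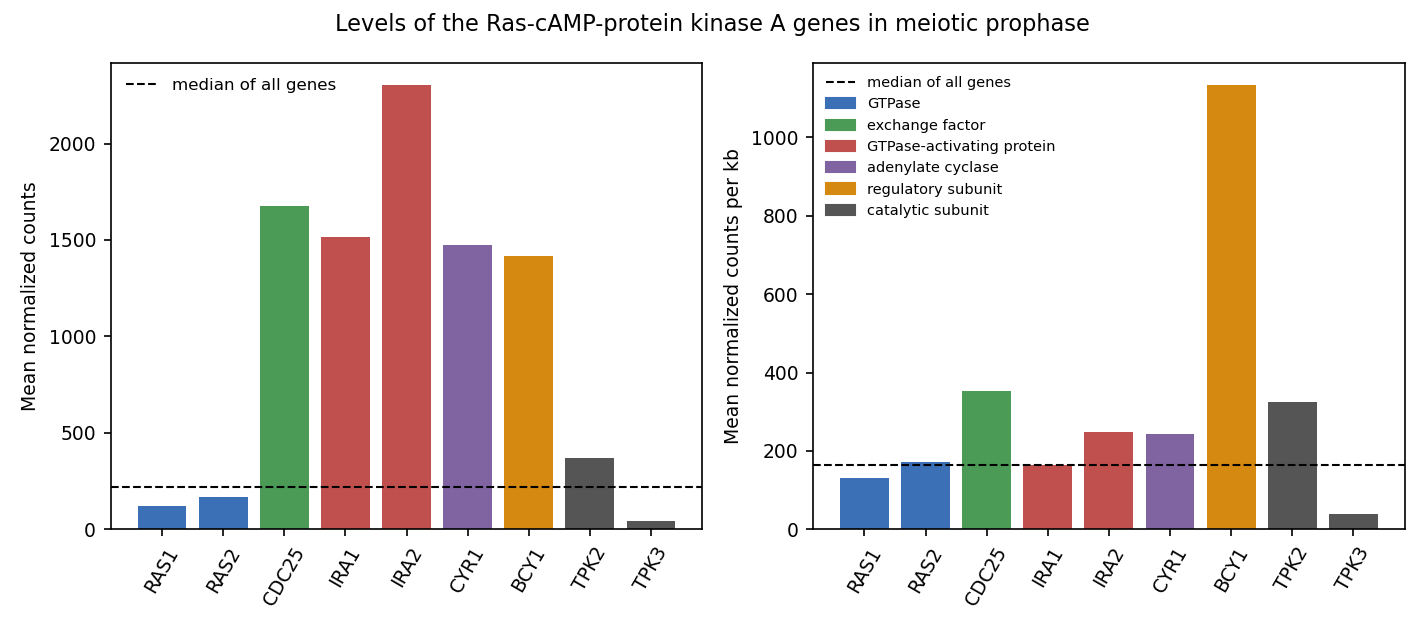
Bars show the authors' mean over 6 libraries for each of the 9 members, as mean normalized counts (left) and per kb of coding length (right), coloured by the role of the protein, with the median of all genes as a dashed line. *IRA2* is highest on the left at 2302, *BCY1* is highest on the right at 1133 per kb, and *TPK3* is lowest on both sides.

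The members were also set against the quartiles of all genes. *BCY1* and *CDC25* lay above the upper quartile of 339 per kb. *TPK3* lay below the lower quartile of 89.0 per kb. The other 6 lay between the quartiles. *CDC25* (352) and *TPK2* (324) lay close to the upper quartile, on either side of it, and cannot be told apart.

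**Figure D2:**
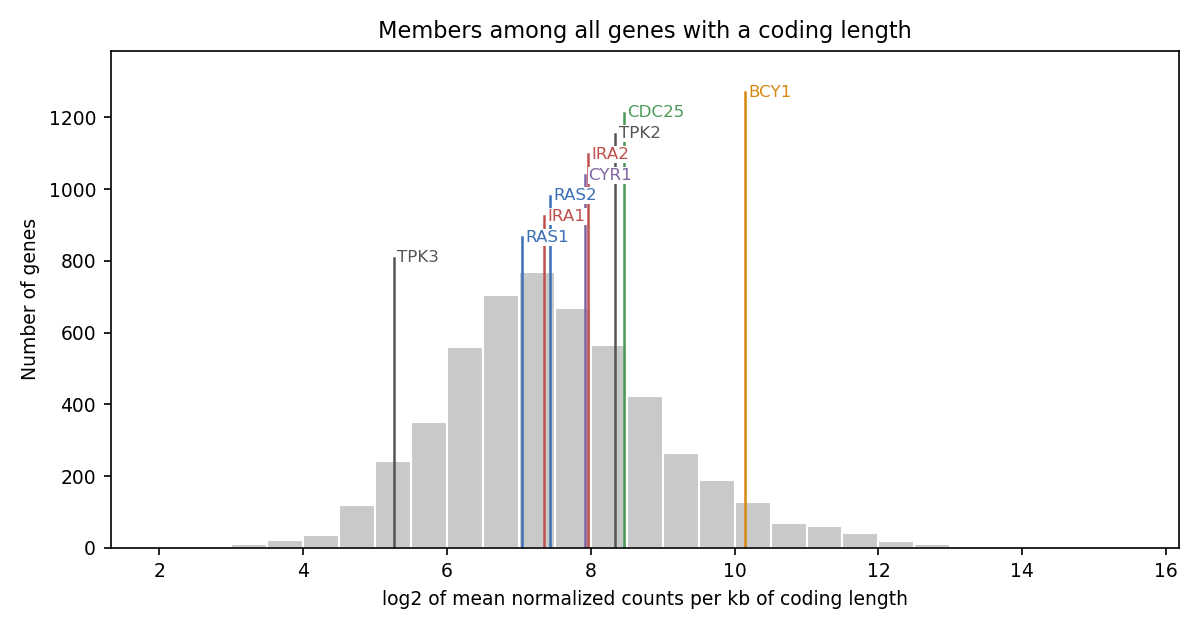
Grey bars give the number of genes in each bin of level per kb (log2 scale) among 5276 genes, and coloured lines mark the 9 members, whose line heights carry no value. *BCY1* sits in the upper tail with 94.4% of genes below it, *TPK3* in the lower tail with 5.72% below it, and the other 7 members lie between them.

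*RAS1* and *RAS2* encode the GTPases at the centre of the pathway, and Ras2 is the form known for the larger part of the signal in growing yeast. *RAS2* (YNL098C, chromosome XIV) had a level of 167 normalized counts, 172 per kb, with 51.5% of genes below it per kb. *RAS1* (YOR101W, chromosome XV) had 122, 132 per kb, with 40.2% of genes below it. Both were ordinary for their size: *RAS2* stood at 1.11 times and *RAS1* at 0.844 times the median level of the 200 genes nearest to each in coding length. Per kb, *RAS2* was 1.31 times as abundant as *RAS1*, a ratio that has no error and so cannot be set apart from equality. In reads, these were the lowest genes of the steps from Cdc25 to Bcy1, and per kb they lay on either side of the much longer *IRA1*. With 200 bases taken off each length, *RAS1* (168) and *IRA1* (167) were nearly equal and *RAS2* had 217, so this order is not firm.

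Reads from similar genes can be split between them, so the sequences of the Ras genes were compared. Translated from the S288C reference, Ras1 has 309 residues and Ras2 has 322, and 63.4% of 303 aligned residues are identical. The identity is concentrated in the first 180 residues, where it is 83.3% and where the GTPase domain lies, against 34.2% of 123 aligned residues in the rest. Both proteins hold 1 nucleotide-binding motif of the form G-x(4)-G-K-S/T, which 5.35% of the proteins compared have, and both have a cysteine as the fourth residue from the end, where a lipid is attached, as do 1.27% of the proteins. Despite the similar proteins, the coding sequences of *RAS1* and *RAS2* share no stretch of 31 bases.

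*CDC25* encodes the exchange factor that loads Ras with GTP, and it was the most abundant per kb of the 3 regulators of Ras among the members. *CDC25* (YLR310C, chromosome XII) had a level of 1678 normalized counts over 4770 bases, or 352 per kb, with 76.0% of genes below it. Its level was 3.11 times the median of the 200 genes nearest in length, most of which are shorter. Among the members only *BCY1* was higher per kb. With 200 bases taken off each length, *TPK2* (393) also stood above *CDC25* (367), so these genes cannot be ordered. Set against both GTPases together, *CDC25* came to 1.16 times their summed level per kb, but to 0.954 times with 200 bases taken off each length and to 5.80 times in reads, so no order can be given.

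*IRA1* and *IRA2* encode the large GTPase-activating proteins that switch Ras off, relatives of human neurofibromin. *IRA2* (YOL081W, chromosome XV) had the highest level of all members, 2302 normalized counts, which placed 96.6% of genes below it. *IRA1* (YBR140C, chromosome II) had 1516, with 93.9% of genes below it. Their coding sequences are among the longest in the genome, 9240 bases for *IRA2* and 9279 for *IRA1*, and only 6 of the genes compared are longer than *IRA2*. Per kb, *IRA2* came to 249 and *IRA1* to 163, and the share of genes below them was 65.1% and 49.6%. *IRA1* thus stood among the highest genes in reads and in the middle of all genes per kb.

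The genes nearest to the *IRA* genes in length gave a further reference point. These 200 genes are between 3861 and 12279 bases long and have a median level of 635. *IRA2* stood at 3.62 times and *IRA1* at 2.39 times this median. As most of these genes are shorter than the *IRA* genes, the ratios are larger than a match in length would give. *IRA2* was 1.53 times as abundant as *IRA1* per kb, again without an error. The proteins, of 3079 residues for Ira2 and 3092 for Ira1, are identical at 47.7% of 2986 aligned residues, and their genes share no stretch of 31 bases.

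The mRNA levels of the regulators of Ras can be compared only per length, because their genes differ so much in size. *CDC25* had 0.853 times the summed level per kb of *IRA1* and *IRA2*. Together, *IRA1* and *IRA2* had 1.36 times the summed level per kb of *RAS1* and *RAS2*. In reads, *CDC25* to the *IRA* genes was 0.439 and the *IRA* genes to the *RAS* genes 13.2, so that each ratio depends on the division by length.

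**Figure D3:**
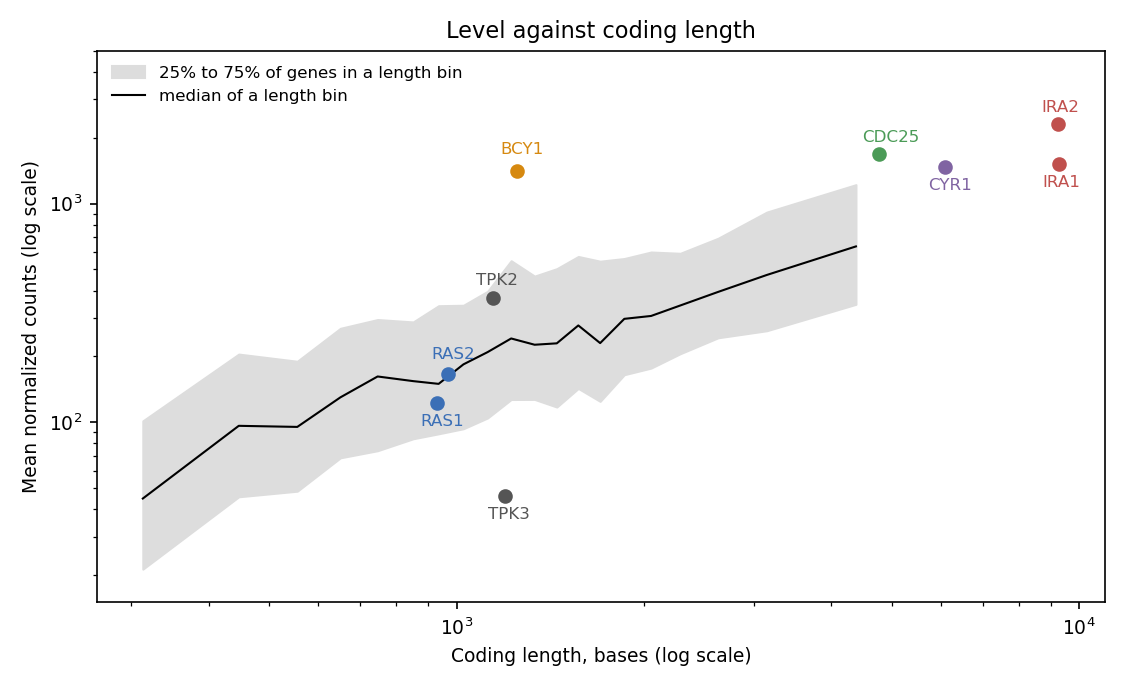
Points show the mean normalized counts of the 9 members against coding length (both log scales), the line is the median of 20 bins of all genes ordered by length, and the grey band spans the quartiles of each bin. *BCY1*, at 1417 and 1251 bases, lies above the band and *TPK3*, at 45.9 and 1197 bases, lies below it, and the band ends before *CDC25*, *CYR1*, *IRA1* and *IRA2*, which are longer than the last bin's median.

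*CYR1* encodes adenylate cyclase, the only enzyme of budding yeast that makes cAMP. *CYR1* (YJL005W, chromosome X) had a level of 1472 normalized counts over 6081 bases, which is 242 per kb, with 64.0% of genes below it. It was the median member per kb. Its level was 2.34 times the median of the 200 genes nearest in length, which span 3819 to 8247 bases. Most of these genes are shorter than *CYR1*, so the ratio is larger than a match in length would give. *CYR1* had 0.796 times the summed level per kb of *RAS1* and *RAS2*, which encode its activators, but 5.09 times in reads, so that the direction depends on the division by length. It stood next to *IRA2* in the order per kb.

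*BCY1* encodes the regulatory subunit that binds cAMP and keeps the kinase inactive without it, and it stood apart from the other members. *BCY1* (YIL033C, chromosome IX) had a level of 1417 normalized counts from a coding sequence of only 1251 bases. Per kb it ranked at place 294 of 5276 genes, with 94.4% of genes below it. Its level was 5.88 times the median of the 200 genes of 1209 to 1293 bases that are nearest in length, and 92.5% of these genes were lower. The coding sequence of *BCY1* also has a GC content of 45.9%, the highest of the members, against a median of 39.7% over all genes, and the part of GC content in this level was not tested.

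*TPK2* and *TPK3* encode catalytic subunits, which phosphorylate the targets of the pathway, and were listed at unequal levels. *TPK2* (YPL203W, chromosome XVI) had a level of 370.5 normalized counts, 324 per kb, with 73.4% of genes below it. *TPK3* (YKL166C, chromosome XI) had 45.9, or 38.3 per kb, with 5.72% of genes below it. Per kb, *TPK2* was 8.46 times as abundant as *TPK3*, the largest of the 3 ratios between paralogs given here. *TPK3* reached only 0.188 times the median of the 200 genes nearest in length, and 2.00% of these were lower.

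Shared reads can make paralogs hard to separate, and Tpk2 and Tpk3 are the most similar proteins of the set. Tpk2 has 380 residues and Tpk3 has 398, and 66.9% of 375 aligned residues are identical. Their genes share no stretch of 31 bases in the S288C reference. Over the whole set, no member shares such a stretch with any other coding sequence, none overlaps another annotated gene, and all have an unbroken coding sequence. As the reads were mapped to the SK1 genome, this was not checked on the sequences that were used for counting.

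*BCY1* had 3.49 times the level of *TPK2* per kb and 3.82 times in reads, with no error for the ratio. These values concern *TPK2* alone and do not give the balance of regulatory to catalytic subunits. Protein levels were not analysed here.

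A further feature that the choice of members did not use is the sequence that protein kinase A itself prefers, R-R-x-S/T, where x is any residue. It occurs in 5 of the 9 member proteins, against 17.1% of all 5276 proteins. Cyr1 has 4 matches, Cdc25, Ira1 and Ira2 have 2 each, and Bcy1 has 1. None occurs in Ras1, Ras2, Tpk2 or Tpk3. Cyr1, Cdc25, Ira1 and Ira2 are also the longest member proteins, and longer proteins hold more matches of any short motif. A match describes the letters of the sequence, and whether any match is phosphorylated was not tested.

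Beyond the members, 31 further genes of the pathway were listed and 29 of them had a row, the exceptions being *SDC25* and *FLO8*. Their median was 255 per kb, against 165 for all genes, and 20 of the 29 lay above the median of all genes. For a signalling pathway that also governs growth, 9 genes of TORC1, its regulators and its effector kinase Sch9 had a median of 125 per kb. Of these 9, only *SCH9* was above the median of all genes. These medians carry no test.

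In the glucose receptor branch, which activates the cyclase beside Ras, 1 of 6 genes was above the median of all genes per kb, but 3 of 6 were above the median of the 200 genes nearest to each in length, *GPB2* and *GPR1* only just, at 1.08 and 1.01 times. In the other groups below, the count was the same against both medians. The gene above both by a wide margin was *GPA2*, which encodes the G protein alpha subunit, with 482 per kb, whereas the receptor gene *GPR1* had 139 and the kelch protein genes *GPB1* and *GPB2* had 129 and 155. *PLC1*, for phospholipase C, was lowest in this branch with 115 and *RGS2*, a negative regulator of Gpa2, had 139.6. Of the 7 genes that regulate or process Ras, 4 were above the median. *TFS1*, an inhibitor of Ira2 and of carboxypeptidase Y, stood highest at 1030.2 per kb. Those for the protease and the methyltransferase that act after farnesylation were low, *RCE1* at 60.3 and *STE14* at 31.7, whereas the farnesyltransferase subunit genes lay on either side of the median, *RAM2* at 198 and *RAM1* at 108.

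All 3 genes around the cyclase and cAMP turnover were above the median. *SRV2*, the cyclase-associated protein, had 385 per kb. *PDE2*, the high-affinity phosphodiesterase that degrades cAMP, had 345, and the low-affinity *PDE1* had 208. *CYR1*, at 242, lay between them per kb, while in reads its 1472 normalized counts were above the 545 of *PDE2* and the 231 of *PDE1*.

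Of the 13 genes downstream of the kinase, 12 lay above the median of all genes, and their own median was 412 per kb. *NTH1*, the neutral trehalase that protein kinase A activates, was the highest of the whole list at 1265. *ADR1*, a transcription factor for growth on non-fermentable carbon, had 718. *IGO2* and *IGO1*, which Rim15 phosphorylates, had 648 and 486, and *RIM15*, the kinase held back by protein kinase A, had 281. *MSN2* and *MSN4*, the stress transcription factors that protein kinase A keeps out of the nucleus, had 264 and 255. *SFL1*, a repressor of flocculation genes, was the 1 gene below the median, at 123.

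**Figure D4:**
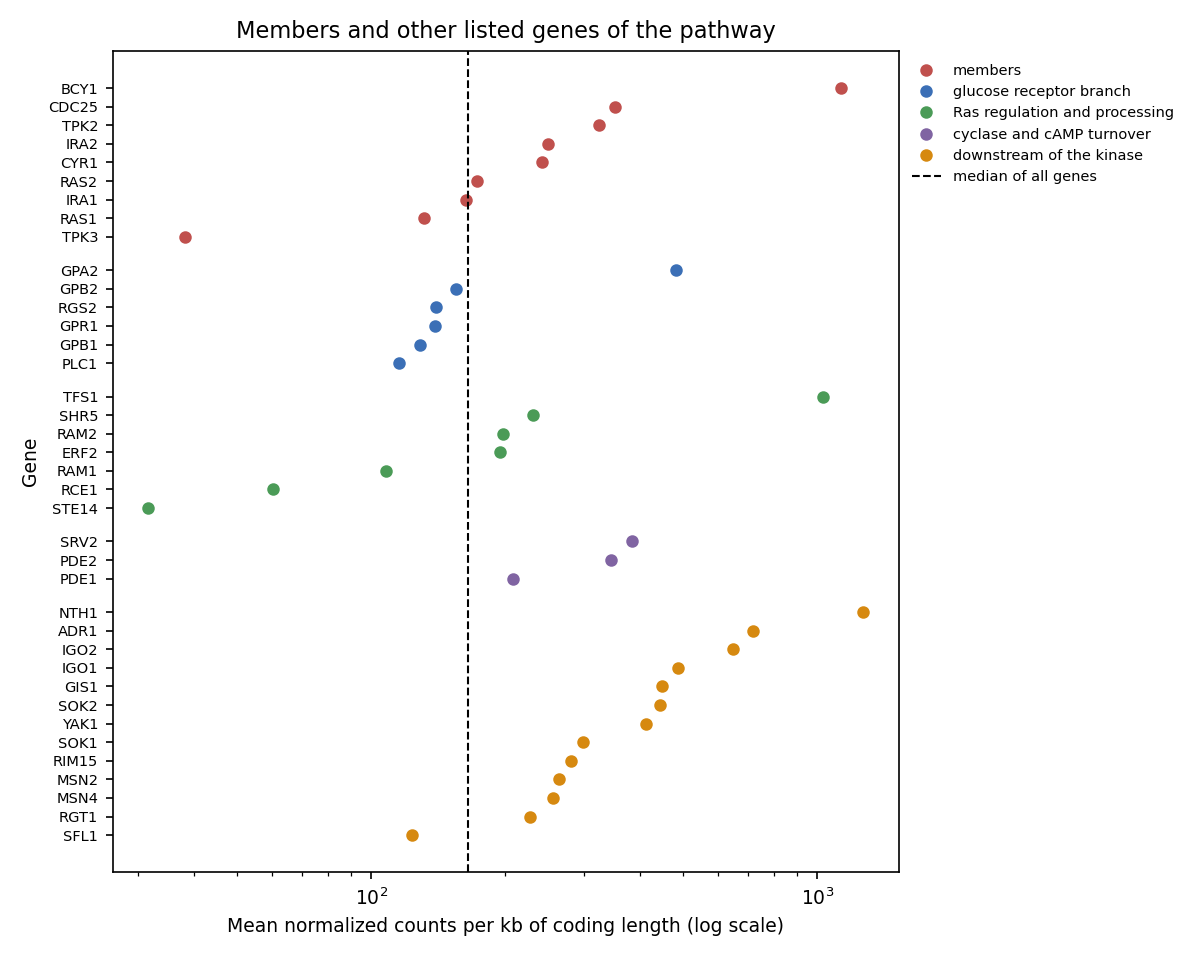
Each point is the level of 1 gene per kb (log scale) as the authors' mean over 6 libraries, for the 9 members at the top and 29 other pathway genes below, coloured by group, with the median of all genes as a dashed line. Of the 13 genes downstream of the kinase 12 lie right of the line, and of the 6 genes of the glucose receptor branch 1 does, although 3 of these 6 are above the median of the 200 genes nearest in length.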

How the data were processed

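The authors prepared strand-specific poly(A) libraries, sequenced them with paired ends and ran the nf-core RNA-Seq pipeline on an SK1 reference. The authors then passed the gene counts from salmon through ComBat-Seq, for batches, and DESeq2. The labels also name Trim Galore and STAR, and versions are not given in the sources used here. The signal analysed is the deposited average of each gene's normalized counts across 6 libraries (3 *SPO11*, 3 *spo11-YF*), which is not divided by gene length and has no value per library. The other 5 numeric columns hold the authors' own comparison of the strains (log2 fold change, standard error, statistic, p-value and adjusted p-value) and were not used. No strain comparison or test was therefore made. The values of 1 gene of the pathway are not reported here.

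Levels were divided by coding lengths of the S288C assembly R64, where 5276 of 5297 systematic names were found. As the assembly differs from SK1, no coordinates are given and promoters were not searched for motifs. Identity came from global alignment (BLOSUM62, gap penalties -11 and -1, free end gaps). The rank, identity and shared-sequence steps were tested on simulated data. The members and lists were chosen with earlier results of these data known. The named genes were the members, the direct steps of the pathway, and the 5 highest and 5 lowest of the other listed genes. *GPB1*, *GPB2*, *RGS2*, *RAM2* and *SCH9* were named after their values were seen. Python 3.11.15, numpy 2.4.6, pandas 2.3.3, Biopython 1.88 and matplotlib 3.10.9 were used.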

Additional observations from a re-analysis of the deposited data

How the results depend on the processing

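No paired analysis was possible because the table holds 1 pooled value per gene, and for the same reason the planned comparison of the strains, other count models, a count filter in the test and leaving out each replicate were not run. The number of members above the median of all genes was 6 in level, also among the genes with a mean of at least 10 normalized counts and among those with a standard gene name. Per kb it was 6 in both of these settings and with an effective length (200 bases taken off). It was 7 with the annotated gene length and 7 against the 200 genes nearest in length, a reference chosen after seeing the data. For all 9 members the annotated gene length equals the coding length, so that setting could change only the median of all genes. It does not test the lengths used for the members. The count against neighbours includes *IRA1*, most of whose neighbours are shorter. The number of other pathway genes above the median per kb was 20 in all settings but the last, where it was 22. Of 9 ratios between genes, all 9 stayed within 1.5 times with the effective length. Without division by length, 4 moved further, namely *IRA1* plus *IRA2* to *RAS1* plus *RAS2* (13.2), *CDC25* to *IRA1* plus *IRA2* (0.439), *CDC25* to *RAS1* plus *RAS2* (5.80) and *CYR1* to *RAS1* plus *RAS2* (5.09). These follow from the length of the genes. *CDC25* to *RAS1* plus *RAS2* was 0.954 with the effective length, on the other side of 1. Neither sampling error nor the spread between cultures is known for any level.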
